A study of Homo sapiens with 5 samples.

Results

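The plasminogen activation system was followed in gefitinib-sensitive and gefitinib-resistant lung adenocarcinoma cells through 9 genes chosen by name, namely PLAU, PLAT, PLAUR, PLGRKT, PLG, SERPINE2, SERPINB2, SERPINB6 and SERPINB8. Of these 9, 8 gave their name to an entry among the 37181 genes or assembled loci of the expression table, although that of SERPINB8 also holds transcripts of HMSD, and SERPINB2 was joined with SERPINB10 in an entry named for the latter. HCC827 is a lung adenocarcinoma cell line with an activating deletion in exon 19 of EGFR, and all libraries came from this line or its resistant derivative. HCC827/GR cells were derived from it by exposure to rising doses of gefitinib, an EGFR tyrosine kinase inhibitor, for more than 6 months, and the parental HCC827 cells were drug sensitive. RNA sequencing gave 3 libraries of HCC827/GR cells (replicates 1, 2 and 3) and 2 of HCC827 cells (replicates 2 and 3), and nothing in the labels says whether replicates were separate cultures, so the p-values measure only the spread between these libraries. HCC827/GR stands for a single selected resistant line, so a difference from the parental cells cannot be told apart from the drift of that line.

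Plasminogen is an inactive precursor that circulates in blood. It is cut to the protease plasmin by the urokinase-type activator, encoded by PLAU, or by the tissue-type activator, encoded by PLAT. Urokinase works at the cell surface through its receptor, encoded by PLAUR, while PLGRKT encodes a membrane protein that holds plasminogen there. Serpins trap such proteases in a covalent complex. SERPINE2 encodes protease nexin-1, a secreted serpin that inhibits thrombin, urokinase and plasmin, SERPINB2 encodes plasminogen activator inhibitor type 2, and SERPINB6 and SERPINB8 encode intracellular serpins of the same clade as SERPINB2. In carcinomas the system is known for its part in the breakdown of matrix and in cell migration.

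The data show a change on the inhibitor side and a change on the activator side. SERPINE2 rose in HCC827/GR cells, from 13.5 ± 4.54 FPKM (SD, n = 2) to 51.1 ± 12.7 FPKM (SD, n = 3). PLAU fell from 84.5 ± 12.9 FPKM (SD, n = 2) to 42.2 ± 12.4 FPKM (SD, n = 3), which passed the thresholds used for calls but not an adjusted p of 0.05, and its receptor PLAUR went from 5.73 ± 1.16 to 2.61 ± 0.861 FPKM (SD, n = 2 and 3). PLAT, PLGRKT, SERPINB6 and SERPINB8 passed neither the fold change nor the p threshold, and PLG was close to 0 in every library. FPKM counts fragments relative to transcript length and to the mapped total of a library, as the authors calculated it, so levels of different genes may be set side by side within a library. It carries no read counts, so library depth is unknown and no counting error could be given.

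The cell lines were compared with limma, two-sided, on log2(FPKM + 1). Entries averaging under 0.5 FPKM across the 5 libraries were set aside, which left 16189 to test. A gene was called where its fold change on that scale reached 2, or fell to 0.5 or below, with a p under 0.05, and adjusted p-values are Benjamini-Hochberg values over all entries tested. Adding 1 makes the change of a low gene look smaller than it is. Of the 9 members, 7 reached the mean of 0.5 FPKM. Among these 7, 1 was called higher in HCC827/GR cells, against 2.96% of all entries tested, and 1 was called lower, against 3.97%. An unadjusted p under 0.05 was found for 3 of the 7 (SERPINE2, PLAU and PLAUR), against 27.2% of all entries tested, and an adjusted p under 0.05 for 1 (SERPINE2), against 11%. In 5 of the 7 the values of the 2 cell lines did not overlap, against 46.3% of all entries tested. The median difference of the 7 was 0.15 in log2(FPKM + 1), and that of all entries tested was 0.0014. The members were chosen with earlier results of these data known, so these shares are a description only. In these bulk libraries, fewer cells with a transcript and less of it per cell cannot be told apart.

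**Figure D1:**
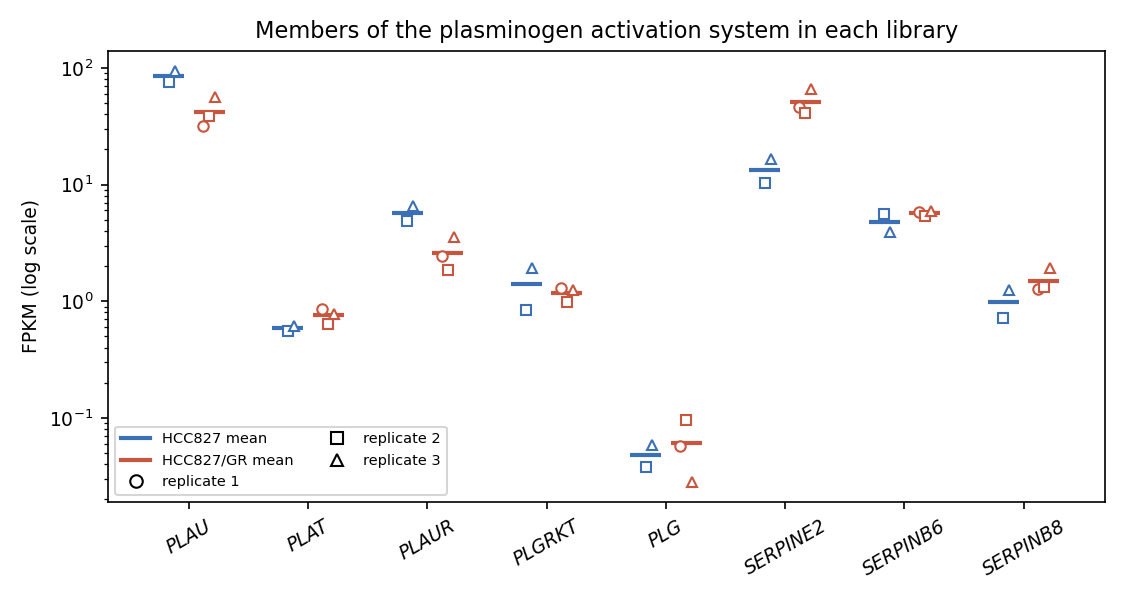
FPKM of the 8 members with an entry of their name (log scale) in the HCC827 libraries (blue) and the HCC827/GR libraries (red), with markers for the replicate number and horizontal bars for the group means. SERPINE2 lies between 41.3 and 65.4 FPKM in HCC827/GR cells against 10.2 and 16.7 FPKM in HCC827 cells, while PLAU and PLAUR lie lower in HCC827/GR cells and PLG is below 0.1 FPKM throughout.

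SERPINE2 lies on the minus strand of chromosome 2 of GRCh38, from 223975112 to 224039319. Its level was 46.6, 41.3 and 65.4 FPKM in HCC827/GR replicates 1, 2 and 3 and 10.2 and 16.7 FPKM in HCC827 replicates 2 and 3. The lowest HCC827/GR library was thus well above the highest HCC827 library. The ratio of the mean FPKM was 3.80, and the difference in log2(FPKM + 1) was 1.86 (standard error 0.29, 95% interval from 1.11 to 2.61, adjusted p = 0.0254 from limma). An exact two-sided permutation test over the libraries gave p = 0.1, which is the lowest value possible with groups of 3 and 2. By level, SERPINE2 stood above 84.4% and 90.5% of the tested entries in the HCC827 libraries and above 97.2% to 98.4% in the HCC827/GR libraries. The rise was past both thresholds with any library left out, although the adjusted p then lay between 0.0594 and 0.115. The authors used the Ballgown package. Its model was rewritten here as a linear model with a term for the summed lower values of each library. It did not return the counts of changed genes that the authors reported. With this version of Ballgown's model the difference was 1.61 with an unadjusted p of 0.0533, so the call was lost.

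SERPINE2 has 2 transcript starts among these RefSeq windows, and the stretch before the start at 224031478 is shown because of its many CCAAT boxes. The 250 bases before that start, at chr2:224031479-224031728 on the minus strand of GRCh38.p14 (RefSeq), are printed 5′ to 3′ with the CCAAT box in capitals on either strand (CCAAT or ATTGG).
SERPINE2, before the start at 224031478: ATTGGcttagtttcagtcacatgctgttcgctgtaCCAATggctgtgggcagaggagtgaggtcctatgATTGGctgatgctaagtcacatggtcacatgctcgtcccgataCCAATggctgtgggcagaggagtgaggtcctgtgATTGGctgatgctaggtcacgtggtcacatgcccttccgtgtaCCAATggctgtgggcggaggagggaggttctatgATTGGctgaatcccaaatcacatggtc
The stretch held 7 matches, and 0.0199% of the 35116 RefSeq windows of this length held 7 or more, while 32.0% held at least 1. It is made of a repeated unit, since 73.4% of the 173 positions that could be compared carried the same base 77 positions further on. The other RefSeq window of SERPINE2, before the start at 224038640, held 0 CCAAT boxes and 2 GC boxes (GGGCGG on either strand), a motif that 42.6% of all windows held. The deposited value is per gene, so which start the transcripts used was not measured.

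PLAU lies on the plus strand of chromosome 10, from 73909177 to 73917497. PLAU read 31.7, 39.0 and 55.8 FPKM in HCC827/GR replicates 1, 2 and 3 and 75.4 and 93.6 FPKM in HCC827 replicates 2 and 3. The groups did not overlap, and replicate 3 was the highest library in each cell line. The difference in log2(FPKM + 1) was -1.02 (standard error 0.27, 95% interval from -1.71 to -0.32), with an unadjusted p of 0.0137 and an adjusted p of 0.0857 from limma. The fall therefore passed the fold change and p thresholds but not the adjusted one, and the exact permutation test, two-sided, gave p = 0.2. The call ended without HCC827/GR replicate 1 (-0.83), without HCC827/GR replicate 2 (-0.98) and without HCC827 replicate 3 (-0.86), although the direction was the same in each. Even after the fall, PLAU stood above 96.0% to 97.9% of the tested entries in the HCC827/GR libraries. C10orf55 overlaps PLAU on the opposite strand, at 2.14 and 1.69 FPKM in HCC827 cells and 1.00, 0.813 and 0.935 FPKM in HCC827/GR cells. Whether the authors counted by strand is not given in the sources used here, so reads of the overlap cannot be told apart.

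PLAUR lies on the minus strand of chromosome 19, from 43646095 to 43670547. Its level was 2.43, 1.85 and 3.54 FPKM in HCC827/GR replicates 1, 2 and 3 and 4.91 and 6.55 FPKM in HCC827 replicates 2 and 3. All HCC827/GR libraries were below both HCC827 libraries. The difference in log2(FPKM + 1) was -0.92 (standard error 0.24, 95% interval from -1.54 to -0.29, unadjusted p = 0.0133, adjusted p = 0.0842 from limma), which was just under a fold of 2, and the exact permutation test, two-sided, gave p = 0.1. It passed that threshold with a pseudocount of 0.1 (-1.14), with the ratio of the mean FPKM (-1.14), without HCC827/GR replicate 3 (-1.10) and without HCC827 replicate 2 (-1.09). With Ballgown's model the difference was -1.11, but the unadjusted p was 0.0791 and the adjusted p 0.328. Without HCC827 replicate 3 the difference was -0.74 and the unadjusted p was 0.0872.

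Short stretches before the starts of PLAU and PLAUR are shown because these genes, a ligand and its receptor, both lay lower in HCC827/GR cells. They are printed 5′ to 3′ on the strand of each gene from RefSeq (GRCh38.p14), with the motif in capitals.
PLAUR, chr19:43670338-43670366, AP-1 motif: tcacaactccaTGAGTCAgggccgagcca
PLAU, chr10:73910888-73910915, E-box: aggcccccggcCAGGTGcatgggaggaa
PLAU, chr10:73911081-73911108, GC boxes: GGGCGGcgccgGGGCGGgccctgatata
The AP-1 motif, searched as TGANTCA, lay 186 to 180 bases before the PLAUR start at 43670169 and was found in 6.57% of all RefSeq windows of 250 bases. The E-box, searched as CACCTG on either strand, lay 233 to 228 bases before the PLAU start at 73911132, and 17.5% of all windows held it. That PLAU window held 3 GC boxes in all, and 13.9% of all windows held at least 3. The PLAUR window held 0 E-boxes and 0 GC boxes, and neither PLAU window held an AP-1 motif. None of these motifs was thus shared by the windows of the 2 genes. Bases further than 250 before each start were not searched, so motifs shared there cannot be told. No printed match overlapped a match of another motif searched, and a match is a description of letters only.

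PLAT, on chromosome 8, encodes the tissue-type activator and was far lower than PLAU in every library. Its levels were 0.860, 0.643 and 0.782 FPKM in HCC827/GR replicates 1, 2 and 3 and 0.559 and 0.619 FPKM in HCC827 replicates 2 and 3. The HCC827/GR libraries were all higher by a narrow margin. The difference in log2(FPKM + 1) was 0.15, with a 95% interval from -0.19 to 0.49 (adjusted p = 0.534 from limma). At so low a level the added 1 compresses any change, so the interval does not bound the fold in FPKM.

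PLG, the gene of plasminogen itself, lies on chromosome 6 from 160702238 to 160753315. It was listed at 0.0380 and 0.0583 FPKM for HCC827 and at 0.0573, 0.0950 and 0.0284 FPKM for HCC827/GR, and the groups overlapped. It was below the mean of 0.5 FPKM and was not tested. Plasminogen is made mainly by the liver, and the hepatocyte markers ALB, APOA1 and TTR were below 0.03 FPKM or listed at 0 in all libraries, whereas SERPINA1, also on that list, was at 3.70 to 4.17 FPKM in HCC827/GR cells and at 5.73 and 5.35 FPKM in HCC827 cells. PLGRKT, the plasminogen receptor gene on chromosome 9 from 5357973 to 5437878, was at 0.841 and 1.94 FPKM in HCC827 cells and at 1.29, 0.988 and 1.24 FPKM in HCC827/GR cells. The HCC827 values enclosed those of HCC827/GR. Its difference in log2(FPKM + 1) was -0.10, with a 95% interval from -0.70 to 0.50 (adjusted p = 0.830), and without HCC827 replicate 3 the sign turned (0.24).

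Neither of the intracellular serpins with an entry of its name was called. SERPINB6, on chromosome 6 from 2948159 to 2972165, measured 5.79, 5.36 and 5.94 FPKM in HCC827/GR replicates 1, 2 and 3 and 5.61 and 3.94 FPKM in HCC827 replicates 2 and 3. The groups overlapped, and the difference in log2(FPKM + 1) was 0.23 (95% interval from -0.17 to 0.63, adjusted p = 0.405). SERPINB8, on chromosome 18 from 63969925 to 64019779, was at 0.711 and 1.24 FPKM in HCC827 cells and at 1.26, 1.32 and 1.91 FPKM in HCC827/GR cells. Its highest HCC827 library lay just below its lowest HCC827/GR library. The difference in log2(FPKM + 1) was 0.34 (95% interval from -0.16 to 0.84, adjusted p = 0.334), and the entry also holds transcripts of HMSD, an overlapping gene on the same strand.

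SERPINB2, next to SERPINB10 on chromosome 18 and from 63871692 to 63903890, could not be read on its own. The entry that joins the 2 genes reached 0.312, 0.148 and 0.327 FPKM in HCC827/GR cells, and it was listed at 0 in HCC827 replicate 2 and at 0.0214 FPKM in HCC827 replicate 3. All HCC827/GR libraries were above both HCC827 libraries, but the entry stayed below the mean of 0.5 FPKM and was not tested, and its reads cannot be divided between the 2 genes.

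**Figure D2:**
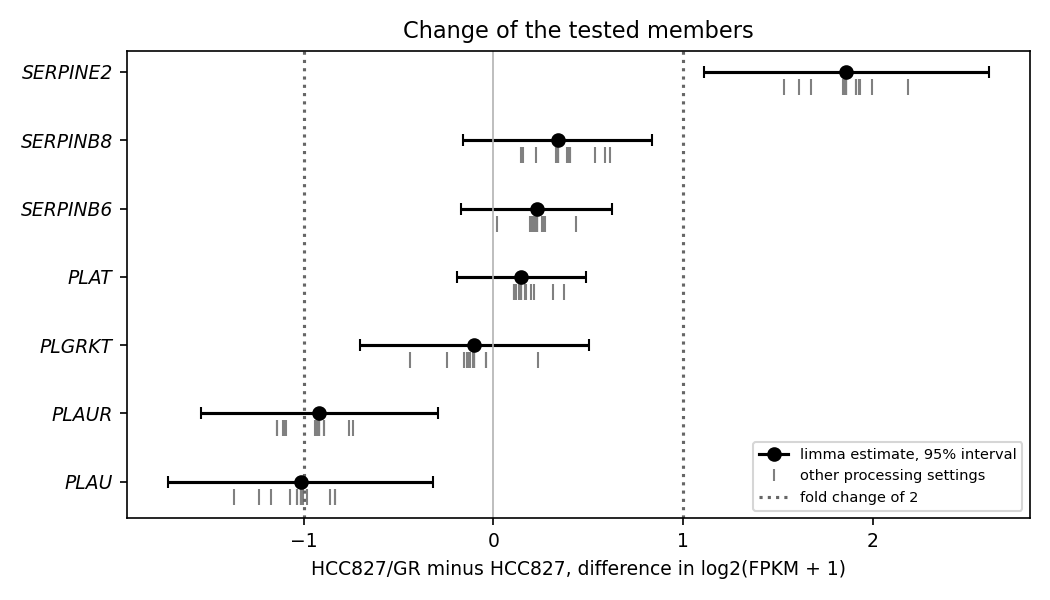
Difference between HCC827/GR and HCC827 in log2(FPKM + 1) for the 7 tested members, with limma's estimate and 95% interval in black and the values under the other processing settings as grey ticks, and dotted lines at a fold change of 2. The interval of SERPINE2 runs from 1.11 to 2.61, those of PLAU and PLAUR lie below 0, and those of PLAT, PLGRKT, SERPINB6 and SERPINB8 include 0.

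The order of the levels was not the same in both cell lines. In HCC827 cells PLAU was the highest member, with SERPINE2 next and no overlap of their libraries. In HCC827/GR cells SERPINE2 had the highest mean, but its libraries overlapped those of PLAU. The next members were PLAUR and SERPINB6, which overlapped in HCC827 cells, whereas in HCC827/GR cells SERPINB6 was above PLAUR in all libraries and PLAUR overlapped SERPINB8. PLGRKT and SERPINB8 overlapped in both cell lines, and PLAT and PLG were the lowest of the 8 in both. The joined entry of SERPINB2 was left out of this order.

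Ratios within a library do not depend on the scaling between libraries. The ratio of SERPINE2 to PLAU was 0.136 and 0.178 in HCC827 replicates 2 and 3 and 1.47, 1.06 and 1.17 in HCC827/GR replicates 1, 2 and 3. SERPINE2 was therefore above PLAU in every HCC827/GR library and below it in both HCC827 libraries. The ratio of PLAU to PLAUR was 15.3 and 14.3 in the HCC827 libraries and 13.03, 21.1 and 15.8 in the HCC827/GR libraries, so the ligand and its receptor kept overlapping ratios. The ratio of PLAU to PLAT was 134.9 and 151.3 in the HCC827 libraries and 36.8, 60.7 and 71.4 in the HCC827/GR libraries. It was lower in all HCC827/GR libraries, while the ratios of SERPINB6 and of SERPINB8 to PLAT overlapped between the cell lines. PLAT itself was at only 0.559 to 0.860 FPKM, so ratios to it rest on a low level. The ratio of SERPINB8 to PLAU was 0.00943 and 0.0133 in the HCC827 libraries and 0.0398, 0.0337 and 0.0342 in the HCC827/GR libraries, again without overlap. That of SERPINB6 to PLAU was 0.0744 and 0.0421 in the HCC827 libraries and 0.183, 0.137 and 0.106 in the HCC827/GR libraries, also without overlap. All of these divide by PLAU, which fell, so they are not separate results for each serpin. These ratios were described without a test.

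**Figure D3:**
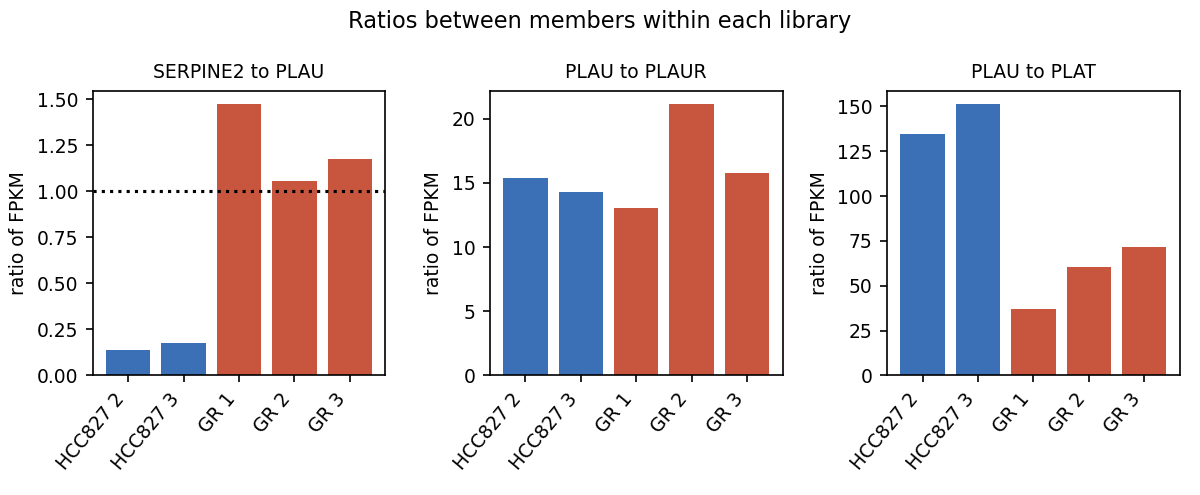
Ratio of the FPKM of SERPINE2 to PLAU, of PLAU to PLAUR and of PLAU to PLAT in each HCC827 library (blue) and each HCC827/GR library (red), with a dotted line at equal levels in the first panel. SERPINE2 to PLAU lies between 1.06 and 1.47 in HCC827/GR cells against 0.136 and 0.178 in HCC827 cells, PLAU to PLAUR overlaps, and PLAU to PLAT is lower in HCC827/GR cells.

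The wider system was described through 66 genes in 5 lists, of which 38 reached the mean of 0.5 FPKM. Among these 38, 5 were called higher and 8 lower in HCC827/GR cells, or 34.2% against 6.94% of all entries tested in either direction. Their median difference in log2(FPKM + 1) was -0.35. Of the 13 called, 11 also had an adjusted p under 0.05 from limma, a combination met by 5.52% of all entries tested. These counts include SERPINB5, among the 8 lower and the 11, which reached the mean of 0.5 FPKM only through the group where it is high. SERPINF2, tested but not called, reached it only through the HCC827/GR libraries. The lists were chosen with earlier results of these data known, so the shares are a description and no test of the wider system.

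Among plasminogen receptors and the receptors that take up protease-serpin complexes, 1 of 10 tested genes rose, 1 fell and 8 were not called. Their median was -0.12, and 6.94% of all entries tested were called in either direction. VLDLR, an endocytic receptor for such complexes, rose from 4.45 and 6.04 FPKM to 16.1, 15.6 and 14.4 FPKM, a difference of 1.40 in log2(FPKM + 1) (standard error 0.14, adjusted p = 0.0109). SORL1, a sorting receptor of the same family, fell from 9.64 and 9.98 FPKM to 3.94, 3.08 and 3.47 FPKM, a difference of -1.27 in log2(FPKM + 1) (adjusted p = 0.00862). The genes of highest level were ENO1, whose enolase can bind plasminogen at the surface, with 306.0 to 423.5 FPKM in HCC827/GR cells and 505.4 and 526.6 FPKM in HCC827 cells, and KRT8, a keratin gene, with 127 to 178 FPKM against 232 and 304 FPKM. Neither was called, with adjusted p-values of 0.180 and 0.101.

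Of the list of other inhibitors, 2 of 6 genes were tested and 0 were called, against 6.94% of all entries tested. SERPINF2, which encodes alpha-2-antiplasmin, had 0.941, 0.906 and 0.748 FPKM in HCC827/GR cells and 0.210 and 0.151 FPKM in HCC827 cells. All HCC827/GR values were higher, and the difference of 0.66 in log2(FPKM + 1) (adjusted p = 0.0483) did not reach a fold of 2 on this scale. SERPINF2 reached the mean of 0.5 FPKM only through the HCC827/GR libraries, where it is high, so its adjusted p is no support for a difference. SERPINA5, the protein C inhibitor gene, had 0.691, 0.672 and 0.165 FPKM against 2.15 and 0.758 FPKM (difference -0.66, adjusted p = 0.277), again with no overlap.

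Surface partners of the urokinase receptor were mostly integrins. Of the 7 tested, 1 fell, 0 rose and 6 were not called, while 6.94% of all entries tested were called in either direction. ITGB3, ITGB6, FPR2 and FPR3 were not analysed here. The integrin genes ITGB1, with 121 to 131 FPKM in HCC827/GR cells and 106 and 112 FPKM in HCC827 cells, and ITGA3, with 58.4 to 74.2 FPKM against 67.8 and 81.2 FPKM, were the highest. Both were left uncalled. The gene called was EGFR, the target of gefitinib, with 7.82, 5.78 and 3.52 FPKM in HCC827/GR cells against 70.8 and 56.4 FPKM in HCC827 cells. Its difference was -3.31 in log2(FPKM + 1) (standard error 0.31, adjusted p = 0.00926), and the median of the list was -0.024.

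Substrates of plasmin and of the activators went both ways, with 4 of 17 tested genes higher, 4 lower and 9 not called. Their median was -0.47, and 2.96% of all entries tested were called higher and 3.97% lower. THBS1, the gene of the matricellular protein thrombospondin-1, had 390.6, 266.6 and 424.6 FPKM in HCC827/GR cells and 33.0 and 38.6 FPKM in HCC827 cells, a difference of 3.27 in log2(FPKM + 1) (standard error 0.24, adjusted p = 0.00521). PDGFD and PDGFC, whose latent growth factors are opened by urokinase, plasmin or the tissue-type activator, rose by 2.08 and 1.43 (adjusted p = 0.0254 and 0.0437). PDGFC had 14.4, 14.7 and 14.4 FPKM in HCC827/GR cells and 6.91 and 3.18 FPKM in HCC827 cells, and its call was lost without HCC827 replicate 3 (0.97). PDGFD had 7.91, 11.7 and 5.22 FPKM against 1.28 and 0.941 FPKM, with no overlap.

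MMP9, a gelatinase gene, ranged widely, with 12.3, 1.93 and 15.9 FPKM in HCC827/GR cells against 1.14 and 0.779 FPKM in HCC827 cells. HCC827/GR replicate 2 thus lay near the HCC827 level. The difference of 2.15 in log2(FPKM + 1) had a standard error of 0.81, an unadjusted p of 0.0476 and an adjusted p of 0.179. Its call was lost when any library other than HCC827/GR replicate 2 was left out, with differences from 1.68 without HCC827/GR replicate 3 to 2.29 without HCC827 replicate 2.

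FN1, the gene of fibronectin, had 4.72, 5.37 and 3.99 FPKM in HCC827/GR cells and 16.99 and 15.1 FPKM in HCC827 cells, a difference of -1.59 (adjusted p = 0.00794). LAMB3, which encodes a laminin chain of epithelial basement membranes, had 6.19, 5.27 and 9.43 FPKM in HCC827/GR cells and 16.6 and 15.9 FPKM in HCC827 cells, and fell by 1.15 on this scale (adjusted p = 0.0489). Its call was lost without HCC827/GR replicate 2, where the difference was -0.99. MMP1, a collagenase gene, fell from 4.63 and 5.41 FPKM to 1.11, 0.783 and 2.21 FPKM, a difference of -1.39 (adjusted p = 0.0445). TNC, the second highest of the list, had 36.7, 43.6 and 39.5 FPKM in HCC827/GR cells and 57.3 and 68.2 FPKM in HCC827 cells and did not reach a fold of 2 (difference -0.64, adjusted p = 0.0481). With Ballgown's model the calls of PDGFC, MMP9 and LAMB3 were lost.

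Of the 10 other clade B serpins listed, 2 were tested and both were called lower, against 3.97% of all entries tested. SERPINB11 and SERPINB12 were not analysed here. SERPINB5, which encodes maspin, had 5.78 and 4.58 FPKM in the HCC827 libraries, was listed at 0 in HCC827/GR replicates 1 and 2 and had 0.00782 FPKM in replicate 3, so it reached the mean of 0.5 FPKM only through the HCC827 libraries and its call is no support for a fall. SERPINB1, an elastase inhibitor gene near SERPINB6 on chromosome 6, had 8.36, 8.22 and 7.32 FPKM in HCC827/GR cells and 20.7 and 20.6 FPKM in HCC827 cells, a difference of -1.28 in log2(FPKM + 1) (standard error 0.097, adjusted p = 0.00552).

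**Figure D4:**
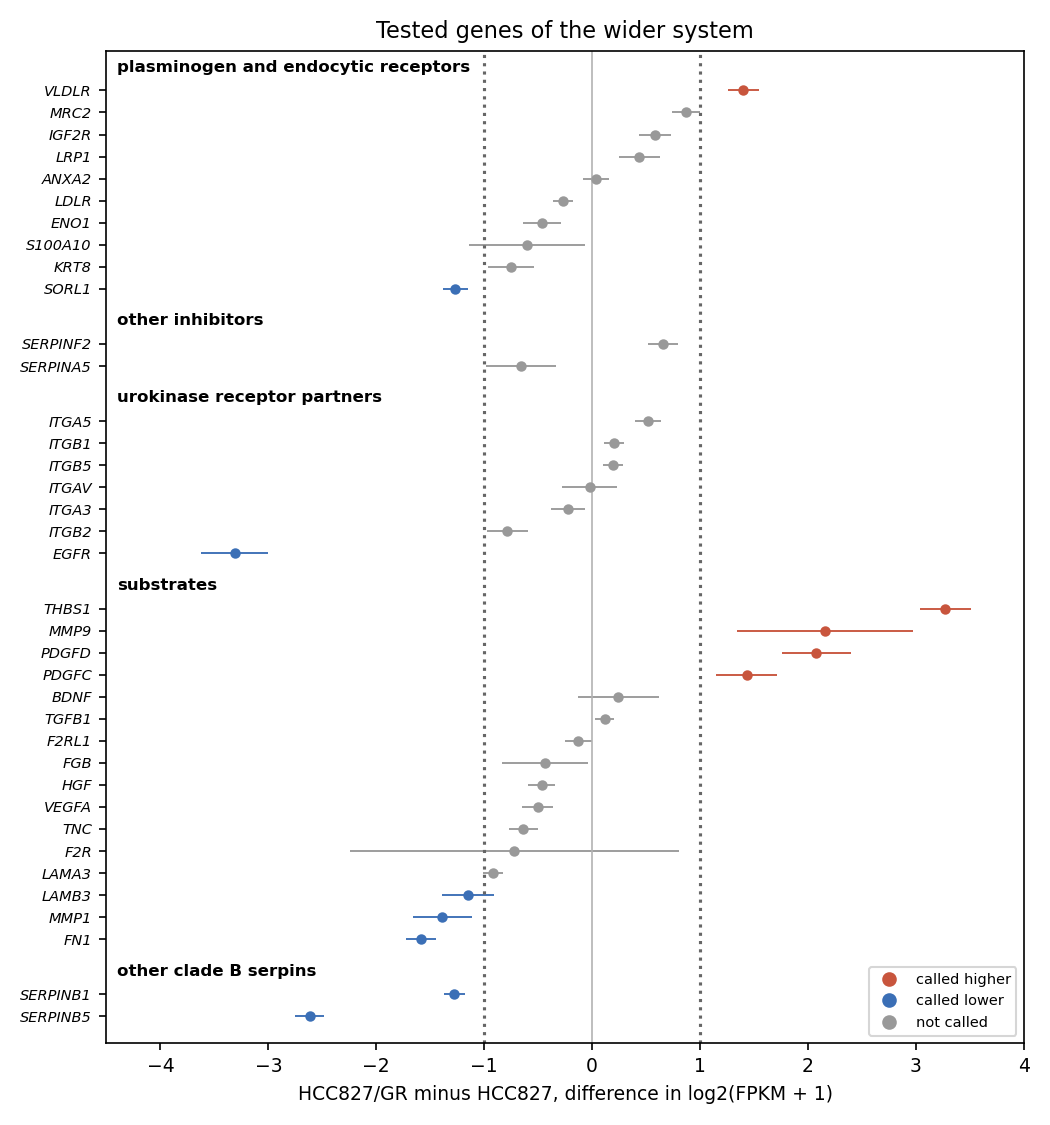
Difference between HCC827/GR and HCC827 in log2(FPKM + 1) for all but 1 of the 38 tested genes of the 5 lists, with standard errors as bars, dotted lines at a fold change of 2, and colour for genes called higher (red) or lower (blue). THBS1 at 3.27 is the highest and EGFR at -3.31 the lowest, and the substrates lie on both sides of 0.

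The genes whose values over the 5 libraries were most like those of a called member were found by the root mean square difference of centred log2(FPKM + 1). For SERPINE2 they were LHFPL6 (0.170) and RFLNB (0.173). LHFPL6 had 3.20, 2.57 and 3.94 FPKM in HCC827/GR cells and 0.0520 and 0.196 FPKM in HCC827 cells. For PLAU they were PHLDA2 (0.0811) and the antisense transcript AP001615.1 (0.1001). PHLDA2 had 4.54, 5.54 and 7.76 FPKM in HCC827/GR cells and 12.5 and 16.0 FPKM in HCC827 cells, with the same order of libraries as PLAU.

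The libraries carried epithelial markers, whose level moved with the cell line. All 6 epithelial markers analysed were above 0.4 FPKM in every library. Of the 6, 4 were called lower, against 3.97% of all entries tested. Their summed level was 443.1 to 573.4 FPKM in HCC827/GR cells and 1068 and 1186.4 FPKM in HCC827 cells. This sum came mostly from the keratin genes KRT8, KRT18 and KRT19. The lung marker NKX2-1, in an entry joined with SFTA3 and AL132857.1, was low in HCC827/GR cells, at 0.963, 0.762 and 0.415 FPKM. Its mean in HCC827 cells was 4.30 FPKM. NAPSA, also on that list, was not analysed here. Of the markers of blood cells, PTPRC, CD14 and LYZ were below 0.3 FPKM in all libraries, CSF1R was at 0.662 and 0.619 FPKM in HCC827 cells and at 0.311, 0.276 and 0.248 FPKM in HCC827/GR cells, and CD68 sits in an entry joined with other genes and makes up nearly all of the list's 31.8 to 39.9 FPKM. Of the endothelial markers VWF, CDH5, KDR and TEK were below 0.1 FPKM, and PECAM1 was listed at 0 in HCC827/GR cells and at 4.34 and 3.32 FPKM in HCC827 cells in an entry with no match in GENCODE. The summed level of the fibroblast markers, mostly COL1A1, was 0.754 to 1.15 FPKM in HCC827/GR cells and 0.667 and 0.885 FPKM in HCC827 cells. Below 0.3 FPKM, 2 of them went opposite ways without overlap. PDGFRB was at 0.278, 0.184 and 0.184 FPKM in HCC827/GR cells against 0.00777 and 0.0147 FPKM in HCC827 cells. LUM was at 0.0129, 0.0123 and 0.0255 FPKM against 0.0930 and 0.257 FPKM. That of the hepatocyte markers, nearly all SERPINA1, was 3.72 to 4.17 FPKM against 5.37 and 5.77 FPKM. The part of the epithelial change in the values of SERPINE2, PLAU and PLAUR was not tested.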

How the data were processed

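RNA sequencing gave 3 HCC827/GR and 2 HCC827 libraries. The authors deposited FPKM values per gene or assembled locus, made by trimming with Cutadapt, mapping with Bowtie2 and TopHat2, and assembly and quantification with StringTie. The submitters' processing notes name hg18 and no versions. The labels describe a small-RNA library, the study's methods describe paired-end sequencing of RNA depleted of ribosomal RNA. A further FPKM column (1) matched no sample described here and was not used. Groups came from the sample titles.

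Symbols with several entries were read from the entry with the highest mean. Positions came from GENCODE release 29 (GRCh38) through transcript identifiers, 135164 of 135299 of which matched. The comparison used limma 3.58.1 in R 4.3.3 (trend, two-sided) on log2(FPKM + 1), mean of at least 0.5 FPKM. It was also run on simulated data with raised levels, a capped spread and no filter. That run therefore does not speak for low or widely varying genes. Figures and summaries used Python 3.11.15, pandas 2.3.3, numpy 2.4.6 and matplotlib 3.10.9. FPKM gives no depth.

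The members and lists were chosen with earlier results of these data known, and do not cover every gene of the system. The text names all members, list genes past the thresholds (at most 4 per list and direction), the 2 highest of each list, and the 2 genes most like each called member, except 1 list gene that is counted but not reported here. C10orf55, which overlaps PLAU, was chosen after its values were seen. Alternatives were a pseudocount of 0.1, other filters (none, or 1 FPKM), median-ratio scaling, quantile normalization and no trend. Others were Ballgown's model, which was rewritten without the package, and the replicate number as a block. The rest were entries summed per symbol, the ratio of mean FPKM, and each library left out.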

Additional observations from a re-analysis of the deposited data

How the results depend on the processing

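SERPINE2 stayed higher and past both thresholds in 14 of 15 alternatives, between 1.53 and 2.19 in log2(FPKM + 1), and lost its call with Ballgown's model, where 0 members were higher. Its adjusted p ran from 0.0187 to 0.287. PLAU stayed lower, between -1.36 and -0.83, and kept its call in 11 of 15. The count of members lower was 2 with a pseudocount of 0.1 and with the ratio of the mean FPKM, 0 with the replicate block, and 0 to 2 with a library left out. PLGRKT ran from -0.44 to 0.24 with a library left out, turning positive without HCC827 replicate 3. Over all entries, a pseudocount of 0.1 gave 860 higher and 1024 lower, and the ratio of the mean FPKM 919 and 1201, against 480 and 643, since both raise the fold change of low values. For the pathway genes, whose alternatives were added after the data were seen, 7 were higher and 9 lower with a pseudocount of 0.1 and with the ratio of the mean FPKM, 3 and 6 with Ballgown's model, and 3 to 5 and 7 to 9 with a library left out, against 5 and 8. Entries with an adjusted p under 0.05 numbered 1775 with limma, 432 to 884 with a library left out, 11 with Ballgown's model and 0 with limma and the replicate block, where 3545 had an unadjusted p under 0.05. The block leaves HCC827/GR replicate 1 without weight. Same-numbered libraries deviated together only weakly across genes (r = 0.0328 and 0.0147). These 2 values rest on the same HCC827 deviations, as HCC827 has only 2 libraries, so they are not independent. They also do not decide pairing for single genes. The numbers were not read as pairs, and whether they are pairs cannot be told. Where an HCC827 library was left out, the lone library was assumed to vary like the others. FPKM carries no depth, so no limit of detection could be set.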

Other observations

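In both cell lines, replicate 3 had the highest SERPINE2, PLAU, PLAUR and SERPINB8. For PLAU, HCC827 replicate 3 had 93.6 against 75.4 FPKM in replicate 2, and HCC827/GR replicate 3 had 55.8 against 31.7 and 39.0 FPKM. SERPINB6 did not follow, since HCC827 replicate 3 had 3.94 against 5.61 FPKM in replicate 2. Nor did PLAT, PLGRKT and PLG, whose highest HCC827/GR library was not replicate 3. Median-ratio scaling left the differences of SERPINE2 and PLAU at 1.84 and -1.03 in log2(FPKM + 1).

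The genes beside the members on their chromosomes were read after the data were seen, as the 5 nearest tested protein-coding genes on each side. Of all entries tested, 6.94% were called in either direction. Around PLAU, 0 of 10 neighbours were called, with differences from -0.61 to 0.41 in log2(FPKM + 1) and a median of 0.037. The 10 include C10orf55 (-0.60), which overlaps PLAU and so is not a separate neighbour. Around PLAUR, 0 of 10 were called, from -0.60 to 0.96 with a median of 0.025. Around SERPINE2, 0 of 10 were higher and 1 was lower, with a median of 0.077. Around SERPINB6, 0 of 10 were higher and 1 was lower, and around SERPINB8, 1 was higher and 1 lower. The lower neighbour of SERPINB8 was SERPINB5, which reached the mean of 0.5 FPKM only through the HCC827 libraries. Around PLAT, PLG and PLGRKT, 0 of 10 were called.

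The SERPINB8 window before the start at 63970081 held 2 AP-1 motifs, TGAATCA and TGAGTCA, where the PLAUR window held 1. The SERPINB2 window, before the start at 63887705, also held 1, TGAATCA. At least 1 was found in 6.57% of all windows, and the share with 2 or more was not counted.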
